A study of Mus musculus with 12 samples.

Results

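The collagen genes of the mouse heart were followed here through ischemia and reperfusion in normal and Slit2-overexpressing animals. Collagen genes were taken as all protein-coding genes whose symbol is Col, a number, the letter a and a number, which gave 44 genes of the 52858 in the deposited tables (22027 of them protein coding). They comprised 11 fibrillar, 8 basement-membrane and 25 other collagen genes. RNA was sequenced from 12 mouse hearts, 3 in each of 4 groups. C57BL/6J hearts and hearts of Slit2-transgenic mice (Slit2-Tg) were removed, perfused ex vivo by the Langendorff method (retrograde through the aorta) and either kept under steady perfusion (the groups C57-non-IR, Slit2-non-IR) or given a brief stop of all flow and then a longer reperfusion (the groups C57-IR, Slit2-IR). All 4 groups thus share excision and ex vivo perfusion without blood. The donors were adult male mice. The transgene is a human Slit2 cDNA under the CMV promoter, which is not restricted to the heart or to a cell type. It was introduced into fertilized oocytes of C57 and CBA crosses and kept on the C57BL/6J background, and heterozygous carriers were identified by PCR. The genotype is stated in the sample labels, and IR or non-IR was read from the letters in the sample titles against the groups of the methods. Reads of the mouse gene Slit2 did not follow the labelled genotype. They amounted to between 0.0847 and 0.813 FPKM in the Slit2-Tg hearts and to between 0.180 and 0.282 FPKM in the C57BL/6J hearts. The transgene is of human sequence and the reads were aligned to the mouse genome, so this level does not check the labels.

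Collagens are extracellular proteins whose chains wind around each other into helical trimers. Fibrillar collagens (types I, III and V in the heart wall) form the cable-like fibrils that carry tension between muscle fibers and are made largely by fibroblasts. Type IV collagen forms the sheet-like network of basement membranes around cardiomyocytes and capillaries, and collagens XV and XVIII sit in or at the edge of basement membranes. The other classes include the beaded microfilaments of type VI, the collagens that decorate fibril surfaces (FACIT collagens) and the transmembrane collagens. Before secretion, the chains are hydroxylated by prolyl and lysyl hydroxylases and folded with the chaperone encoded by Serpinh1 (HSP47). Trimming by proteinases of the Adamts and Bmp1 families and cross-linking by lysyl oxidases are later steps.

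The sequences below show the region where the most abundant pair of collagen genes, Col4a1 and Col4a2, start, and the start-proximal sequence of the collagen genes that passed the adjusted threshold for IR (Col5a1 and Col15a1) and of the collagen chaperone gene Serpinh1. Capitals mark the letters GGGCGG (GC box) or their complement CCGCCC on the other strand. Each is given 5′ to 3′ on the strand of the named gene, from RefSeq annotation on GRCm38.p6.
Col4a1 and Col4a2, chr8:11312805-11312826, plus strand: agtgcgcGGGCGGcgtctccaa
Col5a1, chr2:27886340-27886369, plus strand: tgcgggcgttggGGGCGGtggggggtgggg
Col15a1, chr4:47207982-47208011, plus strand: ggagcgacttcaaccgcgtagctttgggac
Serpinh1, chr7:99353259-99353288, minus strand: ccgcaggcacagGGGCGGgagccagggtgg
Col4a1 and Col4a2 lie head to head, and their annotated first exons overlap by the 22 bases printed, which belong to the 5′ untranslated region of each gene. Of the collagen genes, 35 had a promoter entry among the RefSeq sequences. In the 250 bases before the start, 21 of these 35 (60.0%) held GGGCGG on either strand, against 35.4% of 27025 genes with an entry. CCAAT on either strand was found in 13 of 35 (37.1%) against 37.5% of all, and TATAAA in 5 of 35 (14.3%) against 14.3%. The Col15a1 window held none of these motifs, and the bases printed for it are the 30 before its RefSeq start. Col1a1, Col2a1, Col4a3, Col5a2, Col9a3, Col12a1, Col14a1, Col22a1 and Col26a1 had no entry.

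Other collagen genes are also neighbors. Col4a4 and Col4a3 (chr1:82448423-82586849 and chr1:82586921-82722059) are head to head with 71 bases between them, and Col4a6 and Col4a5 (chrX:141165403-141474076 and chrX:141475385-141689234) with 1308 bases. Col3a1 and Col5a2, encoding chains of types III and V, are tail to tail on chromosome 1 with 24614 bases between them, and Col6a2 and Col6a1 follow each other on the same strand of chromosome 10 at a distance of 85161 bases. Exons of 13 of the 44 collagen genes overlap an exon of another annotated gene, over 14 to 563 bases. The use of strand in counting is not given in the sources used here, so reads in such overlaps cannot be assigned with certainty. Among the genes given per library, overlaps were found for Col4a1, Col4a2, Col3a1, Col15a1, Col5a1, Col6a6 and Col7a1 (14 to 141 bases with any 1 partner, at most 1.44% of exonic bases each), for Col20a1 (79 bases on the same strand, 1.54% of its exonic bases, with a partner at a mean of 1.10 FPKM against 0.518 FPKM for Col20a1 itself) and for Col4a3 (563 bases on the opposite strand, 5.65%, with a partner at 0.0441 FPKM).

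Reads on genes amounted to 16601154 to 24841291 per library, of which 19.7% to 26.0% were mitochondrial. Cardiomyocyte markers were abundant in every library (summed FPKM of 8 genes, 15011 to 23013). Libraries of the same group differed well beyond counting error in every pair (chi-square per degree of freedom 8.66 to 54.3). None was thus the same prepared library sequenced again. This cannot tell separate hearts from separate pieces of the same heart. Slit2-IR replicate 1 stood apart, with 1758 summed FPKM of 6 atrial markers against 26.6 to 246.4 in the other 11 libraries, and 73.5 summed FPKM of 9 valve, cartilage and tendon markers against 8.95 to 31.0. C57-IR replicate 1 had low summed fibroblast markers (610.0 FPKM of 7 genes) compared with 989.0 and 998.8 in the other C57-IR libraries, and its endothelial sum (126.0 FPKM of 5 genes) was the lowest of all libraries. The replicate numbered 1 also had the lowest fibroblast sum in C57-non-IR hearts (605.2 against 781.2 and 850.1) and in Slit2-non-IR hearts (673.2 against 836.7 and 990.1). Slit2-IR replicate 1 went the other way, with the highest fibroblast sum of all libraries (1021.4 against 998.1 and 948.1 in its group). Within every group, replicate 1 had the highest cardiomyocyte sum (19479.5 to 23013.1 FPKM, against 15011.1 to 18177.4 in the remaining libraries). Counts are also given below without the 4 libraries numbered 1.

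Collagen transcripts were moderately abundant in these hearts and were dominated by the basement-membrane class. The summed level of all 44 genes ranged from 138.1 to 423.9 FPKM per library. Basement-membrane collagens made up 46.8% to 58.2% of it, fibrillar collagens 19.7% to 30.2% and the other classes 18.2% to 23.0%. Type VI genes alone contributed 14.1% to 17.5%, FACIT genes 1.54% to 3.20% and transmembrane collagens 0.144% to 0.553%. In order of mean FPKM over the 12 libraries, Col4a1 and Col4a2 led, followed by Col6a1, Col1a1, Col3a1, Col15a1, Col1a2, Col6a2, Col8a1 and Col5a1. Neighbors in this order overlapped in their ranges, so the order is that of the means only. The order, the class shares and ratios between genes also depend on the gene length used for FPKM. For 39 of the 44 genes that length was the union of annotated exons. By reads over all libraries, Col1a2 (38784) exceeded Col3a1 (37190), Col1a1 (30483) and Col6a1 (23095). At the other end, 9 genes had too few reads to be tested. These were Col26a1 (48 reads over all libraries), Col6a5 (37), Col17a1 (29), Col24a1 (23), Col19a1 (14), Col9a1 (12), Col2a1 (11), Col10a1 (4) and Col6a4 (3), among them the genes of the cartilage collagens of types II and X. The remaining 35 genes, 29 of which had at least 10 reads in every library, entered the fit.

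Summed by class, mean collagen levels were highest in Slit2-IR hearts, but the Slit2-IR and C57-IR libraries overlapped in each class. Slit2-IR replicate 2 lay below C57-IR replicates 2 and 3 in each. Fibrillar genes summed to 31.8, 47.5 and 57.5 FPKM in C57-non-IR, 36.6, 66.9 and 77.3 in C57-IR, 53.8, 36.3 and 54.7 in Slit2-non-IR and 86.4, 63.5 and 106.6 in Slit2-IR hearts (replicates 1 to 3). Basement-membrane genes summed to 93.9, 95.6 and 107.2 FPKM in C57-non-IR, 96.9, 143.2 and 137.8 in C57-IR, 83.4, 70.5 and 112.7 in Slit2-non-IR and 144.1, 125.4 and 240.0 in Slit2-IR hearts. The other classes summed to 35.8, 41.8 and 43.8 FPKM in C57-non-IR, 35.9, 54.1 and 60.9 in C57-IR, 41.1, 31.3 and 47.8 in Slit2-non-IR and 68.5, 52.2 and 77.2 in Slit2-IR hearts. In all 3 classes the Slit2-IR libraries lay above every Slit2-non-IR library, whereas C57-IR replicate 1 lay within the C57-non-IR range and the other 2 C57-IR libraries lay above it. As means, the sum of all collagen genes was 185.0 ± 23.6 FPKM (SD, n = 3) in C57-non-IR, 236.5 ± 58.4 in C57-IR, 177.2 ± 38.6 in Slit2-non-IR and 321.3 ± 93.4 in Slit2-IR hearts. In bulk tissue, more RNA per cell and more cells of a type cannot be told apart.

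**Figure D1:**
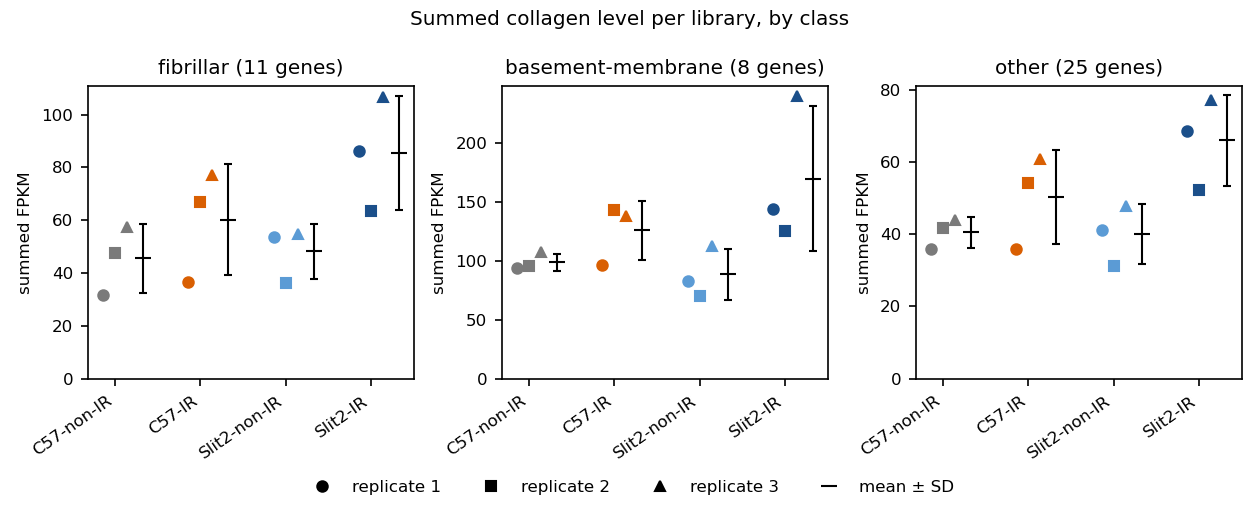
Summed FPKM (y axis) of the fibrillar, basement-membrane and other collagen genes in each library, by group (x axis), with symbols for the replicate number and the group mean ± SD (n = 3) at the right of each group. In Slit2 hearts the IR libraries lie above the non-IR libraries in each class, and in C57 hearts replicate 1 of the IR group lies within the non-IR range.

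The first question was what IR changes in C57BL/6J hearts. Of the 35 tested collagen genes, 29 had a higher and 6 a lower estimate in C57-IR than in C57-non-IR hearts, with a median log2 fold change of 0.11 against 0.00 over all 15258 genes tested. Only Col5a1 was higher at an unadjusted p under 0.05 (log2 fold change 0.37 ± 0.15 SE), and no collagen gene was lower. A gene is said below to have risen when it was past this unadjusted threshold. The share of all tested genes that were higher at this threshold was 4.54%. With Benjamini-Hochberg adjustment over all genes, 0 collagen genes passed (Col5a1, adjusted p = 0.466, limma). By class, 9 of 9 fibrillar, 6 of 8 basement-membrane and 14 of 18 other genes had higher estimates, with medians of 0.25, 0.19 and 0.08. These medians are on the scale of FPKM + 1, which understates the change of low genes. With a pseudocount of 0.1 the median of the 35 was 0.27. Col15a1 was the one gene of 35 whose IR libraries all lay above the non-IR libraries, against 6.74% of all tested genes. Its margin was small, 10.911 against 10.902 FPKM in the nearest libraries. The count at an unadjusted p under 0.05 rested on C57-IR replicate 1. Without that library 10 collagen genes were higher, against 6.79% of all tested genes. The count also rested on other single libraries. It was 0 when C57-IR replicate 2 or either of C57-non-IR replicates 1 and 2 was left out. It was 2 when Slit2-IR replicate 3 or C57-non-IR replicate 3 was. Scaled to the total reads on genes, it was 0. Markers of other cells also differed in this comparison, with higher estimates for 7 of 7 fibroblast, 6 of 6 atrial, 5 of 5 mesothelial (1 at an unadjusted p under 0.05) and 5 of 5 adipose markers (4 at that threshold) and lower ones for 5 of 5 endothelial markers. Summed adipose markers were 0 to 0.847 FPKM in C57-non-IR and 0.105 to 17.2 in C57-IR hearts, and summed fibroblast markers 605.2 to 850.1 and 610.0 to 998.8. Their part in the collagen values was not tested.

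The same question was put to the Slit2-Tg hearts. All 35 tested collagen genes had a higher estimate after IR than without it (31 higher and 4 lower with scaling to total reads). The median log2 fold change was 0.19 against 0.01 over all genes. With a pseudocount of 0.1, 34 were higher and 1 lower, with a median of 0.46. At an unadjusted p under 0.05, 13 of 35 were higher, against 6.15% of all tested genes, and none was lower. The 3 Slit2-IR libraries lay above the 3 Slit2-non-IR libraries for 15 of 35, against 8.64% of all tested genes. The 13 were spread over the classes, with 3 of 9 fibrillar genes (Col1a1, Col5a1, Col5a3), 3 of 8 basement-membrane genes (Col4a1, Col4a2, Col15a1) and 7 of 18 others (Col6a1, Col6a2, Col6a3, Col6a6, Col16a1, Col20a1, Col7a1). None passed after adjustment over all genes, the smallest adjusted p being 0.0777 (Col20a1, limma). Without C57-IR replicate 1 Col20a1 did pass (adjusted p = 0.0254, limma), and over all alternatives its adjusted p ranged from 0.0254 to 0.265. The number of collagen genes at an unadjusted p under 0.05 stayed between 9 and 16 when single libraries were left out and was 14 without the 4 libraries numbered 1. Without those 4 libraries, 25 estimates were higher and 10 lower. Summed fibroblast markers were 948.1 to 1021 FPKM in Slit2-IR and 673.2 to 990.1 in Slit2-non-IR hearts, and 4 of the 7 tested fibroblast markers had higher and 3 lower estimates, with 0 at an unadjusted p under 0.05. Estimates were also higher for 6 of 6 atrial markers, 9 of 9 valve, cartilage and tendon markers (0 at that threshold in either list) and 5 of 5 mesothelial markers (1 at that threshold). Summed valve, cartilage and tendon markers were 13.9 to 73.5 FPKM in Slit2-IR and 10.1 to 26.7 in Slit2-non-IR hearts, and summed mesothelial markers 2.02 to 5.25 and 0.846 to 3.96. Whether the cell content of the samples plays a part in the collagen values was not tested.

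**Figure D2:**
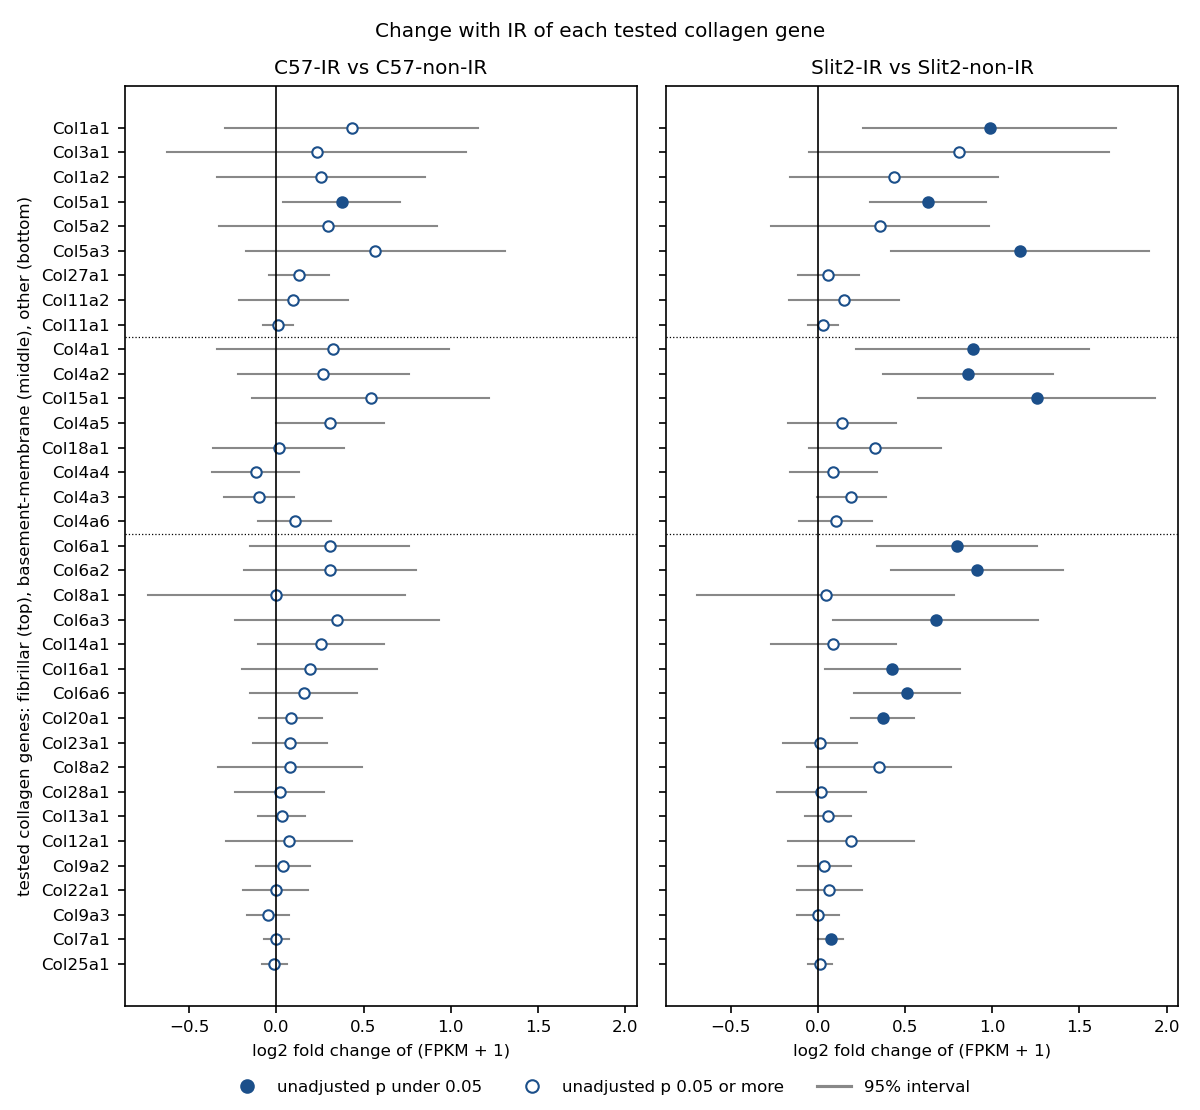
Log2 fold change with IR (x axis, FPKM + 1 scale) of the 35 tested collagen genes, sorted by class and mean FPKM, in C57BL/6J (left) and Slit2-Tg (right) hearts. Bars are 95% intervals and filled points have an unadjusted p under 0.05, which is 1 gene in C57BL/6J and 13 in Slit2-Tg hearts.

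The basement-membrane collagens were led by the paired genes Col4a1 and Col4a2, which encode the ubiquitous type IV chains. Col4a1 (ENSMUSG00000031502, chr8:11198423-11312826, minus strand) was at 38.7, 42.1 and 47.1 FPKM in C57-non-IR, 36.8, 63.5 and 65.4 in C57-IR, 31.1, 30.9 and 50.2 in Slit2-non-IR and 52.2, 55.3 and 109.9 in Slit2-IR hearts. Col4a2 (ENSMUSG00000031503, chr8:11312805-11449287, plus strand) was at 39.4, 36.6 and 41.1 FPKM in C57-non-IR, 40.6, 56.8 and 45.6 in C57-IR, 34.1, 26.7 and 41.9 in Slit2-non-IR and 56.2, 47.6 and 88.7 in Slit2-IR hearts. Both genes were low in Slit2-non-IR replicates 1 and 2, and Slit2-IR replicate 3 was the highest of all libraries for each. With IR in Slit2-Tg hearts they rose by a log2 fold change of 0.89 ± 0.30 SE and 0.86 ± 0.22 SE (adjusted p = 0.264 and 0.123, limma), compared with 0.32 ± 0.30 and 0.27 ± 0.22 in C57BL/6J hearts (adjusted p = 0.907 and 0.876). Their ratio, Col4a1 to Col4a2, was between 0.905 and 1.43 in the 12 libraries, and its group means were 1.09 ± 0.10 (SD, n = 3) in C57-non-IR, 1.15 ± 0.27 in C57-IR, 1.09 ± 0.15 in Slit2-non-IR and 1.11 ± 0.16 in Slit2-IR hearts. The ratio thus differed between groups by less than the spread within them.

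Col15a1 (ENSMUSG00000028339, chr4:47208161-47313167) encodes the chain of collagen XV, a proteoglycan collagen that links basement membranes to the interstitial matrix of muscle and capillaries. Its level was 8.22, 8.75 and 10.9 FPKM in C57-non-IR, 10.9, 13.5 and 18.1 in C57-IR, 9.91, 5.42 and 11.5 in Slit2-non-IR and 25.0, 13.5 and 30.7 in Slit2-IR hearts. Every IR library lay above the highest non-IR library of its genotype. In C57BL/6J hearts the margin was small, with 10.911 FPKM (1209 reads) in C57-IR replicate 1 and 10.902 (1198 reads) in C57-non-IR replicate 3. The log2 fold change was 0.54 ± 0.31 SE in C57BL/6J hearts (adjusted p = 0.726) and 1.26 ± 0.31 SE in Slit2-Tg hearts (adjusted p = 0.109, limma). Mean FPKM in Slit2-non-IR and Slit2-IR hearts was 8.94 and 23.0, against 1.58 and 5.29 for the lower gene Col5a3. Col15a1 had the largest Slit2-Tg estimate of any collagen gene on the FPKM + 1 scale, which understates the change of low genes. With the replicate number as a block its adjusted p in Slit2-Tg hearts was 0.0258, and over all alternatives it ranged from 0.0258 to 0.364.

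The genes of the other basement-membrane chains had smaller estimates, and none of them was past the unadjusted threshold for IR within a genotype. Col4a5 (chrX:141475385-141689234) was at 2.88, 3.67 and 4.06 FPKM in C57-non-IR, 5.28, 4.98 and 3.65 in C57-IR, 3.91, 4.31 and 4.75 in Slit2-non-IR and 5.40, 4.27 and 4.96 in Slit2-IR hearts. Its estimate was 0.31 ± 0.14 SE in C57BL/6J hearts (unadjusted p = 0.0506, adjusted p = 0.559, limma) and 0.14 ± 0.14 SE in Slit2-Tg hearts. Col4a3, whose product forms a specialized network with those of Col4a4 and Col4a5, was at 0.489, 0.683 and 0.394 FPKM in C57-non-IR, 0.402, 0.371 and 0.478 in C57-IR, 0.392, 0.370 and 0.618 in Slit2-non-IR and 0.554, 0.638 and 0.806 in Slit2-IR hearts. Its estimate was -0.10 ± 0.09 SE in C57BL/6J and 0.19 ± 0.09 SE in Slit2-Tg hearts (limma, adjusted p = 0.900 and 0.465). Its head-to-head neighbor Col4a4, with means near 1 FPKM, had -0.12 ± 0.11 and 0.09 ± 0.11. Col18a1, the source of endostatin, had 0.01 ± 0.17 and 0.33 ± 0.17, and Col4a6 had 0.11 ± 0.10 and 0.10 ± 0.10.

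Among the fibrillar collagens, Col1a1, Col5a1 and Col5a3 were past the unadjusted threshold with IR in Slit2-Tg hearts. Col1a1 (ENSMUSG00000001506, chr11:94936224-94953042) encodes the major chain of type I collagen. Its level was 8.62, 13.4 and 16.0 FPKM in C57-non-IR, 10.7, 20.9 and 21.5 in C57-IR, 17.0, 9.27 and 15.6 in Slit2-non-IR and 34.0, 18.9 and 33.3 in Slit2-IR hearts. Slit2-IR replicates 1 and 3 stood above all other libraries, and Slit2-IR replicate 2 was within the C57-IR range. With IR, Col1a1 rose by 0.98 ± 0.33 SE on the log2 scale in Slit2-Tg hearts (adjusted p = 0.257, limma), while in C57BL/6J hearts the estimate was 0.43 ± 0.33 SE (adjusted p = 0.850). The partner chain gene Col1a2 did not pass in either genotype (0.25 ± 0.27 SE and 0.44 ± 0.27 SE), and the ratio of Col1a1 to Col1a2 was 1.43 to 2.08 in Slit2-IR hearts against 1.07 to 1.39 in Slit2-non-IR, 1.18 to 1.49 in C57-non-IR and 1.22 to 1.68 in C57-IR hearts. This ratio was chosen after its values were seen and was not tested. Col3a1, encoding type III collagen of pliable fibrils, was at 7.30, 12.1 and 17.7 FPKM in C57-non-IR, 8.12, 16.1 and 20.2 in C57-IR, 14.1, 6.96 and 13.5 in Slit2-non-IR and 17.5, 15.7 and 29.5 in Slit2-IR hearts. Its libraries spread widely within each group, and its estimates were 0.23 ± 0.39 SE and 0.81 ± 0.39 SE (adjusted p = 0.971 and 0.476, limma). With the replicate number as a block, Col3a1 was past the unadjusted threshold in Slit2-Tg hearts (unadjusted p = 0.0204 in place of 0.0618, limma).

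Type V collagen nucleates and limits the width of type I fibrils. Col5a1 (ENSMUSG00000026837, chr2:27886425-28039514) was at 4.0, 4.88 and 5.61 FPKM in C57-non-IR, 5.29, 7.0 and 7.42 in C57-IR, 5.75, 4.81 and 5.93 in Slit2-non-IR and 9.49, 7.53 and 10.3 in Slit2-IR hearts. The non-IR groups overlapped each other, and every Slit2-IR library lay above every library of the other 3 groups. It was the only collagen gene with an unadjusted p under 0.05 within each genotype. The rise was 0.37 ± 0.15 SE in C57BL/6J and 0.63 ± 0.15 SE in Slit2-Tg hearts (adjusted p = 0.466 and 0.102, limma). Col5a3, a chain found in fewer tissues, was at 1.83, 1.73 and 2.83 FPKM in C57-non-IR, 2.51, 5.10 and 3.48 in C57-IR, 1.03, 1.95 and 1.75 in Slit2-non-IR and 2.97, 3.42 and 9.48 in Slit2-IR hearts. Slit2-IR replicate 3 was far above the other libraries, and the estimate was 0.57 ± 0.34 SE in C57BL/6J and 1.16 ± 0.34 SE in Slit2-Tg hearts (limma, adjusted p = 0.742 and 0.171). Col5a2, the chain that pairs with that of Col5a1, had 0.29 ± 0.28 and 0.36 ± 0.28. The minor fibrillar genes Col27a1, Col11a2 and Col11a1, at most 1.05 FPKM in every library, had estimates between 0.01 and 0.15 in both genotypes.

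Type VI collagen forms beaded microfilaments that connect cells with the surrounding matrix. Col6a1 (ENSMUSG00000001119, chr10:76708792-76726168) was at 15.1, 17.0 and 17.8 FPKM in C57-non-IR, 15, 25.0 and 23.8 in C57-IR, 17.8, 12.5 and 18.3 in Slit2-non-IR and 27.0, 24.1 and 35.8 in Slit2-IR hearts. Col6a2 (ENSMUSG00000020241, chr10:76595762-76623630) was at 8.02, 7.74 and 10.1 FPKM in C57-non-IR, 8.18, 12.6 and 12.3 in C57-IR, 9.53, 5.86 and 9.07 in Slit2-non-IR and 18.0, 11.7 and 19.0 in Slit2-IR hearts. Col6a3 was at 1.68, 2.02 and 3.09 FPKM in C57-non-IR, 1.90, 2.93 and 5.0 in C57-IR, 2.48, 1.24 and 2.19 in Slit2-non-IR and 4.41, 2.87 and 3.83 in Slit2-IR hearts. For all 3 genes the Slit2-IR libraries lay above the Slit2-non-IR libraries, whereas the C57-IR and C57-non-IR libraries overlapped for each of them. In Slit2-Tg hearts the rise with IR was 0.80 ± 0.21 SE for Col6a1, 0.91 ± 0.22 SE for Col6a2 and 0.68 ± 0.27 SE for Col6a3 on the log2 scale (adjusted p = 0.125, 0.109 and 0.355, limma), and in C57BL/6J hearts the estimates were 0.31, 0.31 and 0.35. The ratio of Col6a1 to Col6a2 stayed between 1.5 and 2.20 in all libraries. Col6a6, an alternative to the third chain, was at 0.865, 0.890 and 1.19 FPKM in C57-non-IR, 1.12, 1.51 and 1.0 in C57-IR, 1.22, 0.757 and 0.922 in Slit2-non-IR and 1.65, 2.37 and 1.44 in Slit2-IR hearts. It rose by 0.51 ± 0.14 SE in Slit2-Tg hearts (adjusted p = 0.141, limma), and its C57BL/6J estimate was 0.16 ± 0.14 SE. Col6a4 and Col6a5, which lie next to it on chromosome 9, were below the filter.

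Of the collagens outside these families, Col16a1, a FACIT collagen, was at 1.39, 1.51 and 1.57 FPKM in C57-non-IR, 1.06, 2.34 and 2.35 in C57-IR, 1.16, 1.45 and 1.76 in Slit2-non-IR and 2.31, 1.93 and 2.67 in Slit2-IR hearts. Its Slit2-IR libraries lay above the Slit2-non-IR libraries (0.43 ± 0.18 SE, adjusted p = 0.383, limma). Col20a1, another FACIT collagen, was at 0.504, 0.376 and 0.427 FPKM in C57-non-IR, 0.342, 0.544 and 0.690 in C57-IR, 0.368, 0.279 and 0.424 in Slit2-non-IR and 0.811, 0.773 and 0.685 in Slit2-IR hearts. The 3 Slit2-IR libraries held 64 to 78 reads of it, against 27 to 45 in Slit2-non-IR hearts, and the log2 fold change was 0.37 ± 0.08 SE (adjusted p = 0.0777, limma). Col7a1, the collagen of anchoring fibrils, was at 0.0856, 0.0630 and 0.0955 FPKM in C57-non-IR, 0.0891, 0.0838 and 0.0692 in C57-IR, 0.0469, 0.0506 and 0.0461 in Slit2-non-IR and 0.110, 0.105 and 0.0960 in Slit2-IR hearts. This rested on 10 to 26 reads per library, and on the scale of FPKM + 1 its rise was 0.07 ± 0.03 SE (adjusted p = 0.410). It was no longer past the unadjusted threshold without the 4 libraries numbered 1 (0.07, unadjusted p = 0.153, limma) or with the replicate block (unadjusted p = 0.0658, limma). Col8a1, the network collagen of vessel walls and one of the 10 most abundant genes, had estimates of 0.00 ± 0.34 and 0.05 ± 0.34 in the 2 genotypes. Col14a1, which binds fibril surfaces, had 0.26 ± 0.16 and 0.09 ± 0.16.

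**Figure D3:**
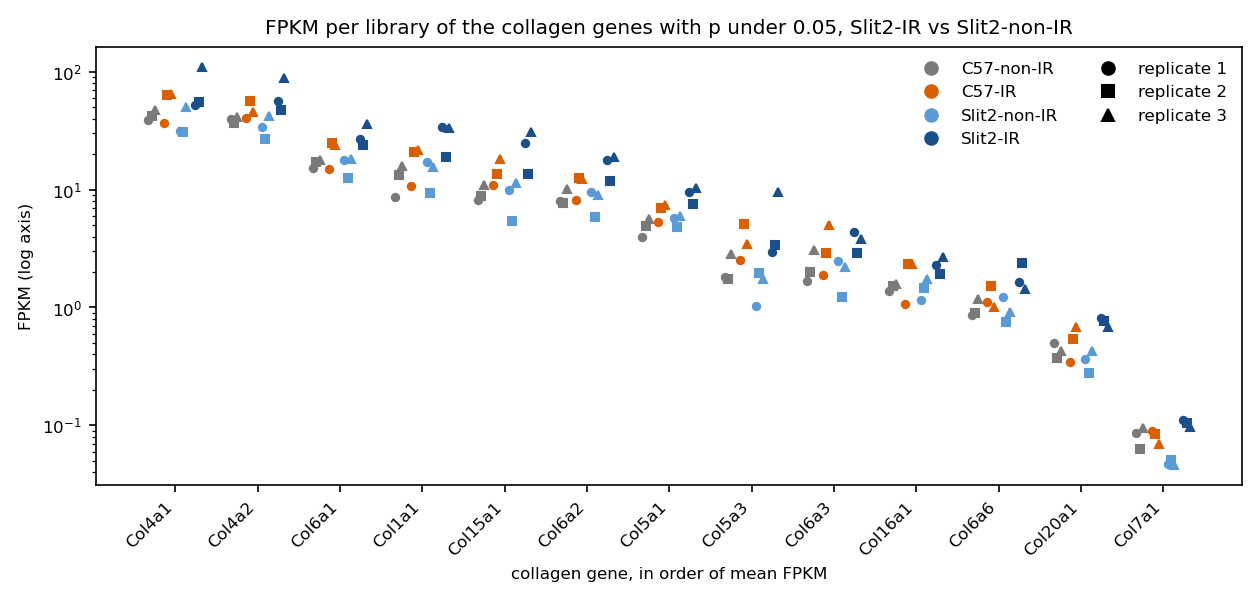
FPKM per library (log axis) of the 13 collagen genes with an unadjusted p under 0.05 for IR in Slit2-Tg hearts, in order of mean FPKM, with colors for the group and symbols for the replicate number. For each gene the dark blue Slit2-IR points lie above the light blue Slit2-non-IR points, while the gray and orange C57 points overlap except for Col15a1. The nearest C57 points of Col15a1 are at 10.902 (gray) and 10.911 (orange) FPKM.

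Averaged over both genotypes, which uses all 12 libraries and shares them with the comparisons above, 33 of 35 collagen genes had a higher and 2 a lower estimate in IR than in non-IR hearts, with a median log2 fold change of 0.17. At an unadjusted p under 0.05, 13 were higher, against 7.92% of all tested genes, and 0 were lower. Of these, 12 were among the 13 called in Slit2-Tg hearts, with Col4a5 (0.23 ± 0.10 SE) in place of Col7a1. After adjustment over all genes, 2 of 35 passed, against 2.33% of all tested genes that were higher at that threshold. These were Col5a1 (log2 fold change 0.50 ± 0.11 SE, adjusted p = 0.0283, limma) and Col15a1 (0.90 ± 0.22 SE, adjusted p = 0.0490). Over all alternatives their adjusted p ranged from 0.0103 to 0.0774 and from 0.00902 to 0.169. The number of collagen genes past the adjusted threshold was 7 with the replicate number as a block, 7 without C57-IR replicate 1, 3 without Slit2-IR replicate 2, 1 when Slit2-non-IR replicate 3 or C57-non-IR replicate 3 was left out, and 0 without any 1 of the other 8 libraries, without the 4 libraries numbered 1, with no filter beyond 1 read or with scaling to total reads. Over all tested genes, 531 passed adjustment in either direction with all 12 libraries, 773 with the block and 713 without C57-IR replicate 1. The number was 329 to 517 without any other single library and 432 without the 4 libraries numbered 1. With no filter beyond 1 read it was 299, and with scaling to total reads 631. At an unadjusted p under 0.05, 1208 of all tested genes were higher and 1215 lower. With total-read scaling the numbers were 743 and 2233, with a median of -0.06. Genes of 6000 bases or more, to which 26 of the 35 belong, had a median of 0.00.

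Levels were next set against summed endothelial and fibroblast markers. Which cells made the collagen RNA was not measured, so these ratios are not levels per producing cell. The basement-membrane sum divided by the summed endothelial markers was 0.487, 0.555 and 0.649 in C57-non-IR, 0.769, 0.842 and 0.730 in C57-IR, 0.642, 0.472 and 0.637 in Slit2-non-IR and 0.999, 0.764 and 1.21 in Slit2-IR hearts. The 6 IR libraries lay above the 6 non-IR libraries. For C57-IR replicate 1 the basement-membrane sum itself (96.9 FPKM) was within the C57-non-IR range, and its endothelial sum (126.0 FPKM) was the lowest of the 12, against 165.3 to 192.6 in C57-non-IR hearts. The fibrillar sum divided by the summed fibroblast markers was 0.0525 to 0.0737 in C57-non-IR, 0.060 to 0.0774 in C57-IR, 0.0367 to 0.0800 in Slit2-non-IR and 0.0636 to 0.113 in Slit2-IR hearts, and these ranges overlapped. The sum of all collagen genes divided by the fibroblast markers was 0.2175 to 0.267 in C57-non-IR and 0.2671 to 0.2777 in C57-IR hearts. In Slit2-non-IR hearts it was 0.1395 to 0.2649 and in Slit2-IR hearts 0.2416 to 0.4471. It thus did not separate all IR from all non-IR libraries. These ratios were formed after the values were seen and carry no test.

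**Figure D4:**
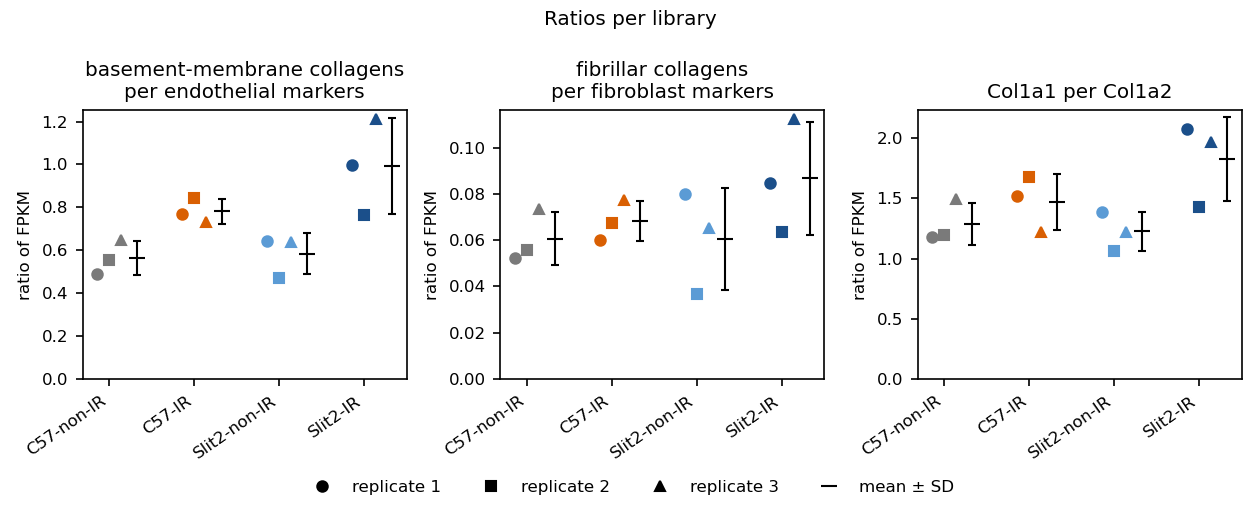
Ratios of FPKM per library (y axis) by group (x axis), with the mean ± SD (n = 3) at the right of each group: basement-membrane collagens to endothelial markers, fibrillar collagens to fibroblast markers, and Col1a1 to Col1a2. The IR libraries lie above the non-IR libraries in the first panel (0.730 to 1.21 against 0.472 to 0.649), and the groups overlap in the second.

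The effect of the Slit2 transgene was examined first without ischemia. Set against C57-non-IR hearts, those with the transgene had 17 of 35 collagen genes with a higher and 18 with a lower estimate and a median log2 fold change of -0.01. None was higher at an unadjusted p under 0.05, against 1.42% of all tested genes, and none was lower by limma. By limma-voom 1 was lower, and over the alternatives the count in either direction was 0 to 2, with 2 when C57-non-IR replicate 2 was left out. The estimates of the abundant genes were small and imprecise, for example -0.22 ± 0.30 SE for Col4a1, 0.13 ± 0.33 SE for Col1a1 and -0.08 ± 0.39 SE for Col3a1. Col14a1 was the one gene with every Slit2-non-IR library above the C57-non-IR libraries, against 4.61% of all tested genes. Col7a1 was the one with every library below them, against 4.57%. Marker estimates were higher for 6 of 7 fibroblast, 6 of 6 atrial and 5 of 5 adipose genes. They were also higher for 8 of 9 valve, cartilage and tendon markers (1 at an unadjusted p under 0.05). Lower estimates were found for 6 of 6 mural (1 at that threshold), 5 of 5 endothelial, 5 of 5 mesothelial and 3 of 3 tested lung markers. Their part in the collagen values was not tested.

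After IR, the comparison of Slit2-IR with C57-IR hearts gave 31 higher and 4 lower estimates, with a median log2 fold change of 0.19. Past the unadjusted threshold, 5 collagen genes were higher, against 1.78% of all tested genes, and 0 were lower. They were Col5a1 (0.42 ± 0.15 SE), Col6a2 (0.51 ± 0.22 SE), Col6a6 (0.34 ± 0.14 SE), Col20a1 (0.21 ± 0.08 SE) and Col4a3 (0.23 ± 0.09 SE). None passed after adjustment (adjusted p = 0.9996 for each, limma). Col5a1, Col4a3 and Col7a1 had all Slit2-IR libraries above all C57-IR libraries (3 of 35, against 3.04% of all tested genes). The 5 calls were not stable to the choice of libraries, with 0 without C57-IR replicate 1, 2 without Slit2-IR replicate 1, 2 without Slit2-IR replicate 3, 8 without C57-IR replicate 3 and 10 without Slit2-IR replicate 2. Without the 4 libraries numbered 1 there were 0, and the estimates were 21 higher and 14 lower with a median of 0.03. A fit of only these 6 libraries gave 2, and the replicate block gave 7, with Col15a1 and Col6a1 added (unadjusted p = 0.0150 and 0.0385, limma). Estimates were also higher for 9 of 9 valve, cartilage and tendon and 6 of 6 atrial markers (0 at an unadjusted p under 0.05), and lower for 3 of 3 tested lung markers (2 at that threshold). Summed atrial markers were 71.0 to 1758 FPKM in Slit2-IR and 90.3 to 246.4 in C57-IR hearts, summed valve, cartilage and tendon markers 13.9 to 73.5 and 9.10 to 21.9, and summed lung markers 0.121 to 0.257 and 0.246 to 11.2. Their part in the collagen values was not tested.

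**Figure D5:**
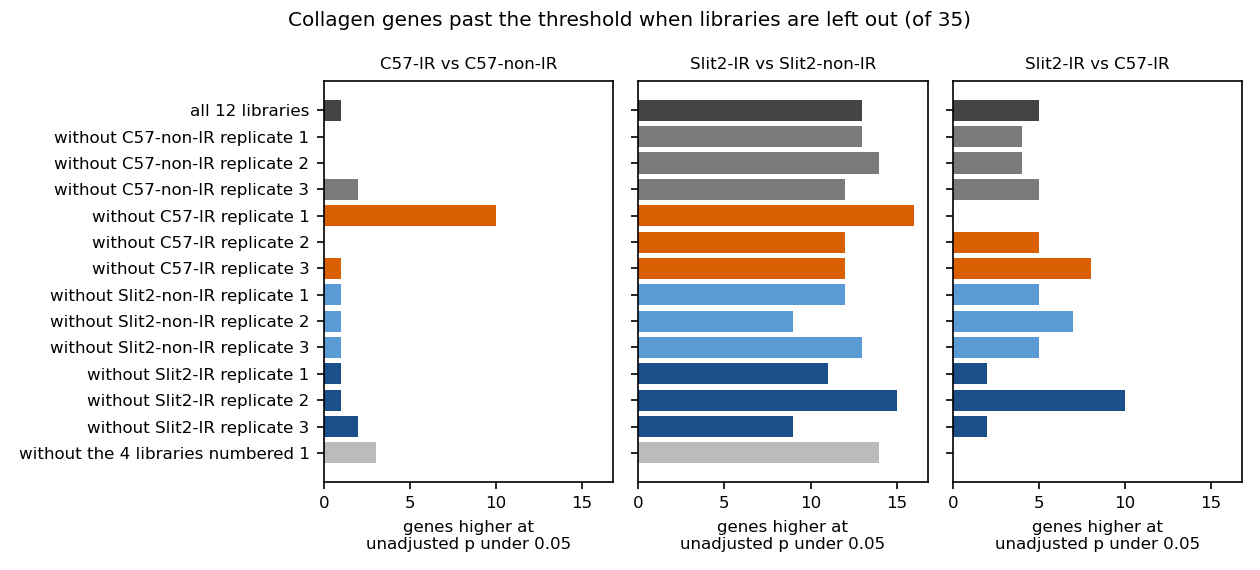
Number of the 35 tested collagen genes that were higher at an unadjusted p under 0.05 (x axis) with all 12 libraries and with the libraries named on the y axis left out, in 3 comparisons. Leaving out C57-IR replicate 1 raises the C57 count from 1 to 10 and lowers the count of Slit2-IR against C57-IR from 5 to 0, and the Slit2-Tg count stays between 9 and 16.

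Whether IR acted differently in the 2 genotypes was tested with an interaction term. The estimate was higher in Slit2-Tg hearts for 29 of 35 collagen genes and lower for 6, with a median difference in log2 fold change of 0.18. Only Col20a1 (0.29 ± 0.12 SE) and Col4a3 (0.29 ± 0.13 SE) were past an unadjusted p of 0.05, against 1.07% of all tested genes, and neither passed after adjustment (adjusted p = 0.9998 for both, limma). For the abundant genes the difference had wide limits, such as 0.56 ± 0.43 SE for Col4a1, 0.55 ± 0.47 SE for Col1a1 and 0.72 ± 0.44 SE for Col15a1. The larger number of calls in Slit2-Tg hearts is therefore not shown to be a difference between the genotypes. The count was 0 when Slit2-non-IR replicate 2, C57-IR replicate 1 or C57-non-IR replicate 1 was left out, 1 when Slit2-IR replicate 1 or C57-non-IR replicate 2 was, and 0 without the 4 libraries numbered 1. Averaged over both states, 31 collagen genes had a higher estimate in Slit2-Tg than in C57BL/6J hearts, and 1 was past the unadjusted threshold (Col5a1, 0.29 ± 0.11 SE, adjusted p = 0.999, limma), against 2.0% of all tested genes. That call was lost when any 1 of Slit2-IR replicate 3, C57-IR replicate 1 and C57-non-IR replicate 1 was left out. Counted in either direction, the number was 7 without Slit2-IR replicate 2, 3 when C57-IR replicate 3 or C57-non-IR replicate 3 was left out, and 2 without any 1 of C57-non-IR replicate 2, Slit2-IR replicate 1 and the 3 Slit2-non-IR replicates.

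Among the genes that process collagen, the chaperone gene Serpinh1 rose with IR. Of 31 tested genes for collagen synthesis and cross-linking, 26 had a higher estimate in IR than in non-IR hearts over both genotypes, 7 were higher at an unadjusted p under 0.05, against 7.92% of all tested genes, and 0 were lower. Serpinh1 and Loxl4, a lysyl oxidase-like gene, passed after adjustment (2 of 31, against 2.33% of all tested genes). Serpinh1, whose product binds procollagen in the endoplasmic reticulum and which is also a heat shock gene, was at 66.9, 74.3 and 90.9 FPKM in C57-non-IR, 77.2, 148 and 199 in C57-IR, 60.7, 85.8 and 92.3 in Slit2-non-IR and 156, 178 and 187 in Slit2-IR hearts. C57-IR replicate 1 was again within the non-IR range, and all other IR libraries lay above all non-IR libraries. Its log2 fold change was 0.95 ± 0.20 SE (adjusted p = 0.0283, 0.00117 to 0.0783 over the alternatives, limma). Loxl4 had 0.29 ± 0.07 SE (adjusted p = 0.0443, 0.0253 to 0.224 over the alternatives). The others past the unadjusted threshold were the prolyl hydroxylase subunit genes P4ha1 (0.46 ± 0.18 SE) and P4hb (0.22 ± 0.08 SE), the procollagen proteinase gene Adamts2 (0.27 ± 0.09 SE) and the oxidase genes Lox (0.37 ± 0.14 SE) and Loxl2 (0.49 ± 0.16 SE).

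In C57BL/6J hearts alone, 3 of the 31 were higher at an unadjusted p under 0.05, against 4.54% of all tested genes (Serpinh1, Lox, Loxl4), and in Slit2-Tg hearts 9 were, against 6.15% (Serpinh1, P4hb, Plod1, Crtap, P3h1, Adamts2, Adamts14, Loxl2, Loxl4), none of either set passing after adjustment. With the replicate number as a block, Serpinh1 in Slit2-Tg hearts had an adjusted p of 0.0216 in place of 0.120 (0.0159 to 0.323 over the alternatives, limma). Crtap, which encodes a partner of prolyl 3-hydroxylase, was lower with the transgene without IR (-0.25 ± 0.10 SE, unadjusted p = 0.0256, limma) and an interaction of 0.46 ± 0.14 SE. Adamts14 had an interaction of 0.38 ± 0.15 SE, and both had an adjusted p of 0.9998 there.

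Several laminin genes, partners of type IV collagen in the basement membrane, rose with IR. Of 20 tested matrix partner genes, 16 had a higher estimate with IR over both genotypes. At an unadjusted p under 0.05, 5 were higher, against 7.92% of all tested genes, and 0 were lower by limma. After adjustment 3 passed, against 2.33% of all tested genes. Laminins are the main network-forming glycoproteins of basement membranes beside type IV collagen. Lama4, of the endothelial laminins, had 0.42 ± 0.09 SE (adjusted p = 0.0242, limma), and Lamc1, the common gamma chain, 0.37 ± 0.08 SE (adjusted p = 0.0412). Over the alternatives the adjusted p of these genes ranged from 0.0101 to 0.0942 and from 0.0359 to 0.146. Lamb1 (0.42 ± 0.10 SE) and Lama2 (0.24 ± 0.08 SE) passed unadjusted only. Within C57BL/6J hearts 4 of the 20 were higher at the unadjusted threshold, against 4.54% of all tested genes. Within Slit2-Tg hearts 6 were, against 6.15%, and none of either set passed after adjustment. In the Slit2-Tg comparison, Hspg2, the gene of perlecan, and Nid2, the gene of a nidogen, were also past it (0.50 ± 0.21 SE and 0.47 ± 0.17 SE, unadjusted). Of the 9 tested genes for collagen receptors, 7 had higher estimates with IR over both genotypes and 0 were past the unadjusted threshold in either direction by limma. The receptor gene Ddr1 was higher with the transgene after IR (0.63 ± 0.26 SE, unadjusted p = 0.0317, adjusted p = 0.9996, limma).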

How the data were processed

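RNA sequencing covered 12 mouse hearts in 4 groups of 3. The authors prepared libraries with a NEBNext Ultra RNA kit, and the submitters' processing notes name HISAT2 and mm10. The counting tool, annotation release and strand setting are not given in the sources used here. The authors deposited FPKM values (reads of a gene per kilobase of its length and scaled by library) for each gene and heart. FPKM times gene length moved in whole steps (within 0.01 reads) for 100% of values, with library scales proportional to median-of-ratios size factors, so reads per gene could be recovered. Every per-library column was used (0 left aside). The labels call the samples independent without naming animals, so p-values measure the spread between these samples.

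FPKM is not a count. Values were therefore tested as log2(FPKM + 1) by limma (moderated statistics, variance trend), all 4 groups sharing a single fit without covariates. Genes entered when 3 or more libraries held what 10 reads would be in a library of median depth and at least 15 reads fell on them in all, which left 15258. On this scale the change of low genes is understated. Adjustment was by Benjamini-Hochberg over all tested genes (threshold 0.05). SE is limma's standard error, and errors of means are SDs over 3 hearts. The members, the lists of synthesis, receptor, matrix and cell type marker genes, and the tests were chosen with earlier results of these data known. Values per library were given for collagen genes past an unadjusted p of 0.05 in any contrast and for the 6 with the highest mean. Genes of the synthesis, receptor and matrix lists were named when past that threshold, except for an item that is not reported here.

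Alternatives were a pseudocount of 0.1, the filter reduced to 1 read, a stricter filter of 10 reads per gene and library, a fit of the 6 libraries being compared, the replicate number as a block, scaling to total reads, limma-voom on recovered reads, robust prior variance and leaving out each library. Leaving out the 4 libraries numbered 1 was added after the values were seen. The replicate numbers come from the labels, which name no shared litter, day or batch. Same-numbered libraries deviated together in all 3 pairs of Slit2-IR with Slit2-non-IR hearts (correlations 0.142 to 0.295) and of Slit2-IR with C57-IR hearts (0.154 to 0.362), and in 2 of 3 pairs of the other comparisons, over a limit of 0.1. Correlations between differently numbered libraries were not computed, so a pairing by number was not established. The fit was tested on simulated data. Promoter sequences came from RefSeq (GRCm38.p6). The software comprised limma 3.58.1 under R 4.3.3, and pandas 2.3.3, matplotlib 3.10.9 and numpy 2.4.6 under Python 3.11.15.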

Additional observations from a re-analysis of the deposited data

Results flagged for a closer look

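Col20a1 and Col4a3 are given here because their response to IR differed between the genotypes by the interaction term at an unadjusted p under 0.05. The difference in log2 fold change, Slit2-Tg minus C57BL/6J, was 0.29 for Col20a1 (unadjusted p = 0.0301, adjusted p = 0.9998, limma) and 0.29 for Col4a3 (unadjusted p = 0.0431, adjusted p = 0.9998, limma). Without the 4 libraries numbered 1 the values were 0.15 (unadjusted p = 0.236, limma) and 0.31 (unadjusted p = 0.115, limma). No formal screen for outlying samples was run within the groups of 3.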

How the results depend on the processing

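The number of collagen genes at an unadjusted p under 0.05 kept within 1.5 times its value under every alternative run for IR in Slit2-Tg hearts (13, range 9 to 16) and for IR over both genotypes (13, range 10 to 17). For IR in C57BL/6J hearts the count of 1 became 2 with a pseudocount of 0.1, at least 10 reads in every library, the replicate block, limma-voom or robust prior variance, 3 with the 6 compared libraries alone or without the 4 libraries numbered 1, and 0 with total-read scaling, and it was 0 to 10 when single libraries were left out. For Slit2-non-IR against C57-non-IR hearts the count of 0 became 1 with no filter beyond 1 read, the 6 compared libraries, limma-voom or without the 4 libraries numbered 1, and was 0 to 2 without single libraries. For Slit2-IR against C57-IR hearts the count of 5 became 2 with the 6 compared libraries and 0 without the 4 libraries numbered 1, and was 0 to 10 without single libraries. The interaction count of 2 became 1 with total-read scaling and 0 without the 4 libraries numbered 1, and was 0 to 3 without single libraries. For Slit2-Tg against C57BL/6J hearts over both states the count of 1 (either direction) became 2 with a pseudocount of 0.1 or no filter, 3 with limma-voom and 0 without the 4 libraries numbered 1, and was 0 to 7 without single libraries. The causes were not tested.

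Under the replicate block the counts were, in order, 2, 13, 0, 7, 3, 14 and 1. They are for IR in C57BL/6J, IR in Slit2-Tg, transgene without IR, transgene after IR, interaction, IR over both genotypes and transgene over both states. At the unadjusted threshold, the block replaced Col7a1 by Col3a1 for IR in Slit2-Tg hearts. In 2 comparisons same-numbered libraries deviated together in all 3 pairs. There, beyond Col15a1 in Slit2-Tg hearts, the block moved no collagen gene across the adjusted threshold. Over both genotypes it added Col4a1, Col4a2, Col6a1, Col6a2 and Col5a3 to the 2 genes past it. Among all tested genes the number past the adjusted threshold there rose from 531 to 773. No collagen gene past an unadjusted p of 0.05 changed direction in the comparison concerned under any alternative run. Col7a1 (10 to 26 reads) and the 9 untested genes were limited by depth.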
